A study of Mus musculus with 7 samples.

Results

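Thyroid hormone supply and response were followed through 8 genes of the mouse cerebral cortex at postnatal day 7. Thra and Thrb encode the nuclear receptors of the hormone, Dio2 and Dio3 the enzymes that activate and inactivate it in the brain, Slco1c1 a transporter that brings thyroxine across the blood-brain barrier, and Crym an intracellular protein that binds triiodothyronine. Klf9 and Hr are genes that the hormone switches on in the developing brain. The 8 were chosen by name for these roles, each had 1 row among the 56941 rows of the deposited table, and all 8 were among the 17582 genes with a mean of 1 TPM (transcripts per 1000000) or more that were tested.

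The study compared fresh cortex of 4 wild-type samples (WT) with 3 samples labelled P213L, after a variant of Hnrnph2, an X-linked gene for an RNA-binding protein that acts in splicing. Both groups were taken at postnatal day 7. The labels give no strain, sex or number of animals per sample. Whether each sample is 1 animal is not stated either, and a p-value here then covers only the spread of these 7 samples, which may be technical. The study asked how the variant affects the formation of oligodendrocytes and myelin, per its title.

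The developing brain receives the hormone mainly as thyroxine, which enters through transporters of the vessel wall and of astrocytes. Astrocytes convert it with the Dio2 enzyme to triiodothyronine, the form that the receptors bind, and neurons degrade both forms with the Dio3 enzyme. The receptors sit on DNA with a retinoid X receptor, hold genes down with corepressors when no hormone is bound, and switch to coactivators when it is. In rodents the first postnatal weeks are a period in which the cortex depends on this supply for neuronal maturation and for the timing of myelination.

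One library touched most of the results. WT replicate 3 had a correlation of 0.943 to 0.949 with the other 6 libraries over the tested genes, against 0.981 to 0.992 among those 6. The 8 markers of cortical excitatory neurons were present in every library and summed to 815 TPM in WT replicate 3 and to 1200 to 1380 TPM in the other 6. The fold changes of the 8 genes are therefore given with and without that library. Library depth, which TPM does not keep, was estimated from the steps between low values at 57200000 counted units in WT replicate 3 and 66400000 to 79400000 in the other 6 libraries. Hnrnph2 itself stood at 78.9 to 90.9 TPM across WT and 77.7 to 88.1 TPM in P213L, which does not check the labels, since the variant changes the protein. Of all tested genes, 657 had an unadjusted p under 0.05 in limma, and 63.2% of these were higher in P213L, against 51.9% after median-of-ratios scaling and 49.4% after quantile normalization.

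None of the 8 genes differed between P213L and WT past adjustment. At an adjusted p under 0.05, limma called 0 of the 8 genes, and 0% of all tested genes. At an unadjusted p under 0.05 it called 0 of the 8, against 3.74% of all tested genes, and the groups overlapped for each of the 8, where 8.69% of all tested genes had groups that did not overlap. The lowest adjusted p among the 8 was 0.827. Of the 8 genes 6 were higher and 2 lower, and of all tested genes 11144 of 17582 were higher. The median log2 fold change of the 8, P213L over WT, was 0.07, as it was for all tested genes (0.07). Without WT replicate 3, 3 of the 8 and 8722 of all tested genes were higher, the median of the 8 was -0.10 and that of all tested genes was -0.002, and Dio2 and Klf9, 2 of the 8, then had an unadjusted p under 0.05, against 8.69% of all tested genes.

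Mean levels per transcript length had the same order in both groups when all libraries were used. Mean TPM ran from Thra through Crym, Klf9, Slco1c1, Dio2, Hr and Thrb to Dio3. Crym and Klf9, next to each other in that order, did not separate. Klf9 was above Crym in WT replicates 1, 2 and 4, and below it in WT replicate 3 and in all 3 P213L libraries. Without WT replicate 3 the WT mean of Klf9 (136.0 TPM) was above that of Crym (126.8 TPM). Dio2 was above Hr in 6 of 7 libraries. The other neighbours kept their order in all 7 libraries.

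**Figure D1:**
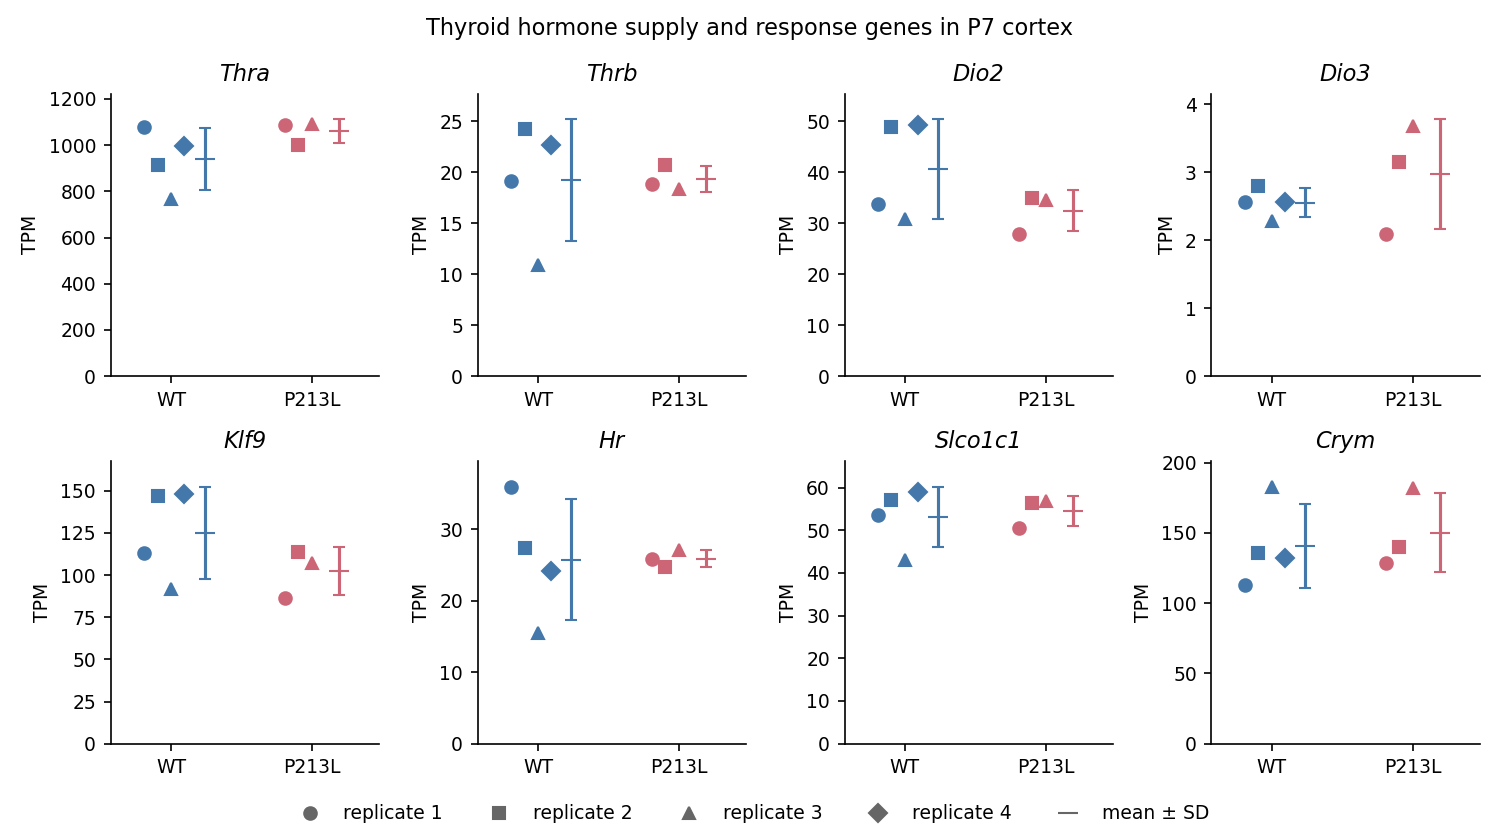
Levels of the 8 genes in each library, in TPM on axes that start at 0, with WT in blue and P213L in red. Symbols mark the replicate number and the bars the mean with SD (n = 4 and 3). WT replicate 3 is the lowest WT value for each gene except Crym, where it is the highest, and the groups overlap in every panel.

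The receptor Thra was the most abundant of the 8 and its values were close together in P213L. Thra (mm10, chromosome 11, 98740638 to 98769006, plus strand) encodes the main receptor of the cortex and, by alternative splicing of its end, a form that does not bind the hormone, and a gene-level value does not tell them apart. It stood at 1079, 916, 767 and 996 TPM in WT replicates 1 to 4 and at 1088, 1001 and 1093 TPM in P213L replicates 1 to 3. P213L replicates 1 and 3 lay just above the highest WT library and P213L replicate 2 within the WT range, and WT replicate 3 was lowest. The log2 fold change was 0.18 ± 0.13 (SE; 95% interval -0.12 to 0.48; limma adjusted p = 0.827; exact permutation p = 0.2), and 0.09 ± 0.08 without WT replicate 3. The last 1075 bases of Thra (98767932 to 98769006) overlap Nr1d1, a clock repressor gene on the other strand. The libraries mark strand, but the strand setting of the counting is not given in the sources used here, so part of either value may come from the other gene. Nr1d1 stood at 30.4 to 62.4 TPM across WT and 48.7 to 51.8 TPM in P213L, with a log2 fold change of 0.04 ± 0.24 (SE), and -0.18 ± 0.07 without WT replicate 3.

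Thrb, the second receptor gene, was present at a fraction of the level of Thra. Thrb (chromosome 14, 17660261 to 18038090, plus strand) stood at 19.2, 24.3, 10.9 and 22.7 TPM in WT replicates 1 to 4 and at 18.8, 20.8 and 18.3 TPM in P213L. WT replicate 3 was far below the rest, and the P213L values lay near the lower end of the other 3 WT libraries. The means were 19.3 ± 5.96 TPM for WT and 19.3 ± 1.28 TPM for P213L (SD, n = 4 and 3), with a log2 fold change of 0.06 ± 0.26 (SE; 95% interval -0.54 to 0.66; limma adjusted p = 0.940; exact permutation p = 0.971). Without WT replicate 3 it was -0.18 ± 0.10, and with median-of-ratios scaling -0.02. Thra exceeded Thrb 37.8 to 70.4 times in WT and 48.2 to 59.6 times in P213L, so the balance of the receptors overlapped between the groups.

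Of the deiodinases, Dio2 had the lower mean in P213L and Dio3 the higher, and neither difference was larger than the spread between samples. Dio2 (chromosome 12, 90724552 to 90738438, minus strand), the activating enzyme of astrocytes, stood at 33.8, 48.8, 30.8 and 49.2 TPM in WT replicates 1 to 4 and at 27.9, 34.9 and 34.6 TPM in P213L. The WT values fell into a high pair, replicates 2 and 4, and a low pair, replicates 1 and 3, and the P213L values lay with the low pair. The means were 40.6 ± 9.74 and 32.5 ± 3.97 TPM (SD, n = 4 and 3). The log2 fold change was -0.30 ± 0.20 (SE; 95% interval -0.76 to 0.17; limma adjusted p = 0.827; exact permutation p = 0.286). It was -0.42 ± 0.16 without WT replicate 3 (limma adjusted p = 0.537) and -0.38 ± 0.16 with median-of-ratios scaling (limma adjusted p = 0.814), both at an unadjusted p under 0.05 that did not survive adjustment. It was nearer to 0 without other libraries, at -0.19 without P213L replicate 1, -0.19 without WT replicate 4 and -0.20 without WT replicate 2. With that scaling, 4.15% of all tested genes had an unadjusted p under 0.05.

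Dio3, the inactivating enzyme, was the least abundant of the 8. Dio3 (chromosome 12, 110279068 to 110281097, plus strand) stood at 2.56, 2.80, 2.29 and 2.56 TPM in WT replicates 1 to 4 and at 2.09, 3.14 and 3.68 TPM in P213L. P213L held both the lowest value and the 2 highest. The values rest on an estimated 83 to 156 counted units per library, against 1469 or more for each of the other 7 genes. The log2 fold change was 0.16 ± 0.19 (SE; 95% interval -0.29 to 0.61; limma adjusted p = 0.831; exact permutation p = 0.429), and 0.12 ± 0.19 without WT replicate 3. It was 0.011 without P213L replicate 3 and 0.36 without P213L replicate 1, so its size rested on single libraries. Dio2 exceeded Dio3 13.2 to 19.2 times in the WT libraries and 13.4, 11.1 and 9.41 times in P213L replicates 1 to 3. The ratio in P213L replicates 2 and 3 was below every WT library, and that in replicate 1 was within the WT range.

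Dio3 lies at the end of an imprinted domain in which the genes expressed from the maternal chromosome are long noncoding RNAs and microRNAs and those from the paternal chromosome, Dlk1, Rtl1 and Dio3, code for protein. Dlk1 stood at 1.38 ± 0.171 TPM for WT and 1.58 ± 0.123 TPM for P213L, and Rtl1 at 7.01 ± 2.79 and 8.43 ± 0.689 TPM (SD, n = 4 and 3). Meg3 and Mirg of the noncoding side had log2 fold changes of 0.32 ± 0.33 and 0.19 ± 0.17 (SE). Without WT replicate 3 the log2 fold change was -0.002 for Meg3, 0.21 for Mirg, 0.14 for Rtl1 and 0.10 for Dlk1. Of the 5 tested neighbours, 0 passed in limma, adjusted or at an unadjusted p under 0.05. Of these, 4 were higher with all libraries (median log2 fold change 0.19) and 3 without WT replicate 3 (median 0.10). Dio3os, a noncoding gene separated from Dio3 by 895 bases, was below the testing minimum, at 0.190 to 0.314 TPM across WT and 0.150 to 0.280 TPM in P213L.

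Slco1c1 was among the least variable of the 8. Slco1c1 (chromosome 6, 141524368 to 141570177, plus strand) encodes the thyroxine transporter of brain endothelium and astrocytes. It stood at 53.5, 57.1, 43.1 and 58.9 TPM in WT replicates 1 to 4 and at 50.6, 56.4 and 56.9 TPM in P213L. Apart from WT replicate 3, the 6 libraries lay between 50.6 and 58.9 TPM. The log2 fold change was 0.05 ± 0.13 (SE; 95% interval -0.26 to 0.35; limma adjusted p = 0.915; exact permutation p = 0.886). It was -0.05 ± 0.07 without WT replicate 3 and -0.04 with median-of-ratios scaling. The 10 endothelial markers summed to 511 to 653 TPM across WT and 513 to 530 TPM in P213L, with the highest sum in WT replicate 3, where Slco1c1 was lowest. The markers split in that library. Cldn5 (332 TPM), Itm2a (148 TPM) and Ly6c1 (20.8 TPM) had their highest value there. Pecam1 (12.3 TPM), Cdh5 (11.7 TPM), Flt1 (6.59 TPM) and Tek (10.7 TPM) had their lowest, so the sum does not measure endothelial content there.

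Crym differed from the other 7 genes in where it was high. Crym (chromosome 7, 120186380 to 120202111, minus strand) stood at 113, 136, 183 and 132 TPM in WT replicates 1 to 4 and at 129, 140 and 182 TPM in P213L. One library of each group, its replicate 3, was well above the rest. The log2 fold change was 0.10 ± 0.19 (SE; 95% interval -0.34 to 0.54; limma adjusted p = 0.873; exact permutation p = 0.6). Leaving out WT replicate 3 gave 0.23 ± 0.13, leaving out WT replicate 1 gave 0.001, and leaving out P213L replicate 3 gave -0.05.

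The hormone-regulated genes Klf9 and Hr had unlike patterns over the libraries, with an r of 0.324 between their log2 values over all 7 and -0.116 without WT replicate 3. Klf9 (chromosome 19, 23141226 to 23168134, plus strand), a zinc finger transcription factor that also responds to glucocorticoids, stood at 113, 147, 91.6 and 148 TPM in WT replicates 1 to 4 and at 86.3, 114 and 107 TPM in P213L. As for Dio2, WT replicates 2 and 4 were high and the P213L values lay with WT replicates 1 and 3. The means were 124.9 ± 27.5 and 102.5 ± 14.4 TPM (SD, n = 4 and 3), and the log2 fold change was -0.27 ± 0.19 (SE; 95% interval -0.72 to 0.18; limma adjusted p = 0.827; exact permutation p = 0.257). It was -0.41 ± 0.14 without WT replicate 3 (limma adjusted p = 0.529) and -0.35 ± 0.15 with median-of-ratios scaling (limma adjusted p = 0.814). It was nearer to 0 without other libraries, at -0.15 without P213L replicate 1, -0.18 without WT replicate 4 and -0.18 without WT replicate 2.

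Hr (chromosome 14, 70552212 to 70573548, plus strand), which encodes the corepressor Hairless, stood at 35.9, 27.4, 15.5 and 24.1 TPM in WT replicates 1 to 4 and at 25.8, 24.7 and 27.0 TPM in P213L. The 4 WT libraries spanned more than a 2-fold range on both sides of the 3 P213L libraries, which lay close together. The means were 25.7 ± 8.46 and 25.8 ± 1.19 TPM (SD, n = 4 and 3). The log2 fold change was 0.07 ± 0.25 (SE; 95% interval -0.52 to 0.65; limma adjusted p = 0.935; exact permutation p = 0.8), and -0.15 ± 0.14 without WT replicate 3.

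**Figure D2:**
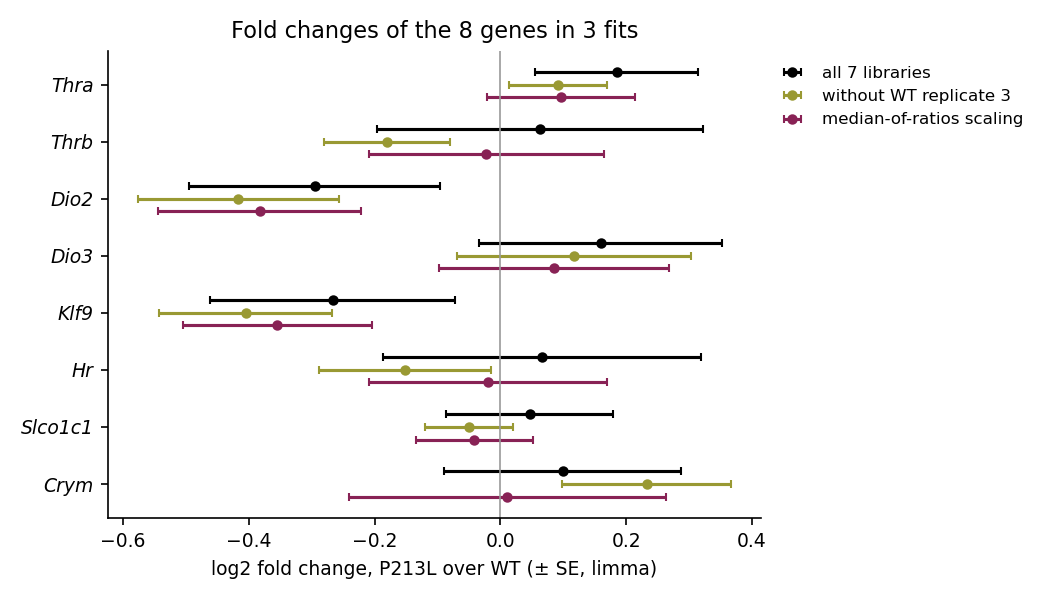
Log2 fold changes of the 8 genes, P213L over WT, with SE from limma, for all 7 libraries (black), without WT replicate 3 (olive) and with median-of-ratios scaling (purple). Dio2 and Klf9 are the only genes of the 8 more than 1 SE below 0 in all 3 fits, while Thrb, Hr and Slco1c1 change sign between them.

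One choice of fit gave calls. With sample weights, which limma estimates from how far each library lies from its group, 4 of the 8 genes passed, against 22.6% of all tested genes. These were Klf9 (log2 fold change -0.45 ± 0.08, SE; limma adjusted p = 0.00867), Dio2 (-0.49 ± 0.09; 0.00888), Thrb (-0.27 ± 0.07; 0.0256) and Crym (0.36 ± 0.10; 0.0339). In that fit P213L replicate 3 had a weight of 6.9 and WT replicate 4 of 5.24, the other 5 libraries had 0.0431 to 1.25, and WT replicate 3 had the lowest, so each group rested mainly on 1 library. The adjusted p of these genes was 0.527 or more in each of the other alternatives.

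Dio2 and Klf9 moved together over the libraries. Their log2 values had a Pearson r of 0.98 over the 7 libraries (Spearman rho 0.964), 0.984 without WT replicate 3 and 0.953 without WT replicates 4 and 2, the libraries highest in both. The libraries share cell composition and scaling, so r is a description. In both genes WT replicates 2 and 4 were highest and P213L replicate 1 was lowest. In bulk samples fewer cells of a type and less RNA per cell cannot be told apart.

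Astrocyte markers moved with both genes, and with Thrb and Slco1c1 as well. The 10 markers, all present, summed to 1290, 1480, 1020 and 1480 TPM in WT replicates 1 to 4 and to 1180, 1220 and 1250 TPM in P213L. The sum was therefore also highest in WT replicates 2 and 4. The groups overlapped only through WT replicate 3, and the other 3 WT libraries lay above all P213L libraries. Slc1a2, the marker with the largest WT mean, stood at 344, 442, 178 and 426 TPM in WT and 251, 302 and 310 TPM in P213L, and weighs on that order. The markers split in WT replicate 3. S100b (64.6 TPM) and Gjb6 (24.9 TPM) had their highest value there, and Slc1a2, Slc1a3, Aqp4, Gfap, Aldh1l1, Gja1 and Fgfr3 their lowest. The sum therefore does not measure astrocyte content there. Without that library, 14.2% of all tested genes had groups that did not overlap. Of the 10 markers, 6 were lower and 4 higher in P213L, with a median log2 fold change of -0.08. With WT replicate 3 left out, 9 were lower and 1 higher, with a median of -0.18. In that fit 4 of the 10 had an unadjusted p under 0.05 in limma, against 8.69% of all tested genes. The r between the log2 of this sum and Dio2 was 0.865 over the 7 libraries, 0.967 without WT replicate 3, and 0.497 without the 2 libraries with the most distant Dio2 values. For Klf9 it was 0.901, 0.944 without WT replicate 3, and 0.956 without its 2 most distant libraries. The same 3 values were 0.906, 0.861 and 0.77 for Thrb, and 0.869, 0.693 and 0.544 for Slco1c1. Thrb and Slco1c1 were not particular to astrocyte markers. The excitatory neuron sum had an r of 0.907 with each over the 7 libraries, and of 0.149 and 0.428 without WT replicate 3. With Dio2 and Klf9 its r over the 7 was 0.421 and 0.543. The part of the astrocyte content in the Dio2 and Klf9 values was not tested.

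**Figure D3:**
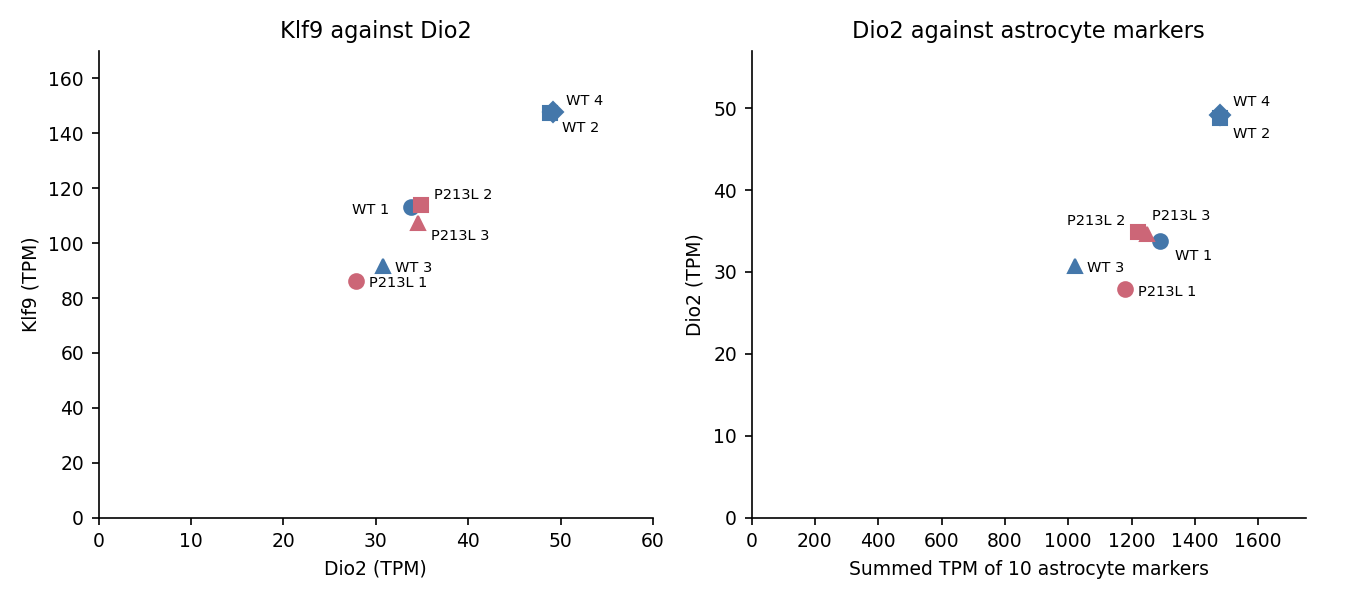
Klf9 against Dio2 (left) and Dio2 against the summed level of 10 astrocyte markers (right), in TPM, 1 point per library, with WT in blue and P213L in red and axes from 0. WT replicates 2 and 4 lie apart at the top right of both panels, and the 3 P213L libraries lie near WT replicates 1 and 3.

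The upstream sequences of Dio2 and Klf9 are shown because these are the 2 of the 8 genes with the highest r between them. Both are the 250 bases before the RefSeq start site (GRCm38.p6), read 5′ to 3′ on the strand of the gene. Dio2 is at chr12:90739039-90739288 (minus strand) and Klf9 at chr19:23140976-23141225 (plus strand). Capitals mark a cyclic AMP response element. Distances below count from the RefSeq start. The Klf9 window borders the gene position given above, and the Dio2 window does not, since that position ends at 90738438.
Dio2: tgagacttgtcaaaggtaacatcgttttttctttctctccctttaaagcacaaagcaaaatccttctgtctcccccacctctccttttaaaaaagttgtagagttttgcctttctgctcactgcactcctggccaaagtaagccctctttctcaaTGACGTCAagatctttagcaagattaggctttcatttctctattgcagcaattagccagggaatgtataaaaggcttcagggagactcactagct
Klf9: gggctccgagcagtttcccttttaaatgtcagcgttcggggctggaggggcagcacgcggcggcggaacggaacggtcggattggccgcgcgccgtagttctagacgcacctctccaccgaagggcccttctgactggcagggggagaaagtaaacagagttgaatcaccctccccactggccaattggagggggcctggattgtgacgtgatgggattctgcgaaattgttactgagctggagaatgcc
Both strands were searched for TGACGTCA, the full cyclic AMP response element, for AGGTCA, the half-site to which thyroid hormone receptors bind, and for a direct repeat of the half-site (AGGTCA, any 4 bases, AGGTCA), which overlaps the half-site search. Dio2 is known as a gene that cyclic AMP switches on, and its window holds TGACGTCA starting 95 bases before the start, a word found in 1.55% of 32851 such windows. The Klf9 window holds none of the 3 words. The half-site is in 14% of all windows, and among the 5 of the 8 genes with a sequence in the RefSeq table (Thrb, Dio2, Dio3, Klf9 and Slco1c1) it occurred once, in the first of 2 Thrb windows, 184 bases before the start. The direct repeat is in 0.0152% of all windows and in none of theirs. The Dio2 window has 41.6% G and C bases and 2 CG pairs, and the Klf9 window has 59.6% and 18.

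For each of the 8 genes, the 3 other genes with the highest r over the 7 libraries were identified. For Dio2 they were Wipf1 (r = 0.995), Pigk (0.985) and Oxr1 (0.983), and for Klf9 they were Cpne8 (0.987), Wipf1 (0.986) and Zfp280c (0.985), so Wipf1 was on both lists. Thra was most like Psd (0.994), Nelfa (0.993) and Nkiras2 (0.993), and Thrb most like Glce (0.998), Maml3 (0.998) and Phldb2 (0.996). For Slco1c1 they were Tmem260 (0.997), Hace1 (0.996) and Zcchc7 (0.995), and for Hr they were Nat8l (0.992), Cyp27b1 (0.988) and Gpr12 (0.986). Dio3 and Crym had the weakest best partners, Iqck (0.961) and Skap2 (0.942), followed by Lbhd1 (0.94) and Fibcd1 (0.9) for Dio3 and by Lap3 (0.92) and Lef1 (0.918) for Crym. Left out of this search were gene models, clones, symbols starting with Mir, Snor, Scarna or Rn, and symbols on more than 1 row. Each r is among the highest over the remaining tested genes, from only 7 libraries that share cell composition and scaling, and is a description. Fibcd1 fell to 0.432 and Skap2 to 0.659 without the 2 libraries most distant in the gene they were matched to.

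The other genes of the pathway were followed in 5 lists of 61 genes in all, of which 59 were tested. Of these, 0 passed in limma after adjustment and 6 had an unadjusted p under 0.05, all of them lower in P213L, where 1.38% of all tested genes were called lower and 2.36% higher. The groups did not overlap for 9 of the 59, 2 higher and 7 lower, against 5.94% and 2.75% of all tested genes. Without WT replicate 3, 14 of the 59 had an unadjusted p under 0.05, against 8.69% of all tested genes. The lists were written with earlier results of these data known, and Mbp, 1 of the 6, was known to be lower. These counts are therefore not independent of the data, and an excess over the shares of all tested genes cannot be read from them.

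Among genes of hormone supply, 3 of 12 tested had an unadjusted p under 0.05, each with all P213L values below all WT values. Sult1a1, a sulfotransferase that acts on iodothyronines, stood at 7.71, 9.11, 7.35 and 8.11 TPM across WT and 6.78, 5.22 and 5.73 TPM in P213L, a log2 fold change of -0.42 ± 0.14 (SE; limma adjusted p = 0.827) and of -0.46 without WT replicate 3. Slco1a4, an organic anion transporter of the blood-brain barrier that carries thyroid hormone, stood at 5.80, 8.42, 6.05 and 7.03 TPM and at 4.08, 5.76 and 5.19 TPM (-0.41 ± 0.18, and -0.46 without WT replicate 3). The nearest WT and P213L values of Slco1a4 were 5.80 and 5.76 TPM. Iyd, which recovers iodide from iodotyrosines, stood at 3.09 to 5.08 TPM across WT and 2.15 to 3.08 TPM in P213L (-0.48 ± 0.21). The nearest values of Iyd were 3.09 and 3.08 TPM, and it had an unadjusted p above 0.05 without WT replicate 3, with a log2 fold change of -0.35.

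Slco3a1 was the only supply gene with all P213L values (30.4 to 31.6 TPM) above all WT values (18.1 to 29.7 TPM), with a log2 fold change of 0.25 ± 0.18 and 0.09 without WT replicate 3. Ttr, the thyroxine carrier made by the choroid plexus, named outside the rule, reached 1216 TPM in WT replicate 2 and lay at 0.222 to 1.36 TPM in the other 6 libraries. Dio2 and Klf9 were as high in WT replicate 4, where Ttr was at 0.875 TPM, as in WT replicate 2. Dio1, the liver deiodinase, was at no more than 0.0851 TPM and was not tested.

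The counts of receptor partners and coregulators on each side of 0 depended on WT replicate 3, as did those of all tested genes. All 16 were tested, with 0 called in limma, adjusted or at an unadjusted p under 0.05. Of the 16, 15 had higher means of log2 values in P213L with all libraries (median log2 fold change 0.15), and 6 of 16 without WT replicate 3 (median -0.03). The same counts over all 17582 tested genes were 11144 and 8722, with medians of 0.07 and -0.002. Rxrb, a retinoid X receptor that pairs with the hormone receptors, had means of 87.5 ± 18.6 TPM for WT and 97.5 ± 6.68 TPM for P213L (SD, n = 4 and 3), with a log2 fold change of 0.18, and 0.09 without WT replicate 3. The coactivator Ncoa3 had a log2 fold change of 0.35 ± 0.35 (SE), and -0.003 without WT replicate 3. Tbl1x, a subunit of the corepressor complex, had 0.30 ± 0.30, and 0.01 without that library. Gps2, another subunit of it, had 0.11 ± 0.10 with all libraries and 0.10 without that one.

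The lists of genes that respond to the hormone in rodent brain were written from general knowledge, with no source to check their members against. Of 20 genes listed as raised, 12 were lower and 8 higher in P213L, with a median log2 fold change of -0.05, and 16 were lower without WT replicate 3 (median -0.16). Of the 20, 0 passed in limma and 2 had an unadjusted p under 0.05, Mbp and Aldh1a1. Mbp, a myelin protein and the subject of the study's own question, stood at 92.3 to 113 TPM across WT and 69.6 to 78.9 TPM in P213L (-0.48 ± 0.11, SE, and -0.43 without WT replicate 3), and it was known to be lower here before the list was made. The 8 oligodendrocyte markers, Mbp among them, moved the same way, with sums of 295 to 340 TPM across WT and 224 to 242 TPM in P213L, and their part in the Mbp value was not tested. Aldh1a1, a retinaldehyde dehydrogenase, stood at 8.85, 9.22, 8.78 and 9.64 TPM across WT and 7.82, 6.99 and 7.13 TPM in P213L (-0.30 ± 0.11, SE, and -0.32 without WT replicate 3). Nrgn, a neuronal calmodulin-binding protein that is a classical target in the forebrain, stood at 1776 to 2593 TPM across WT and 1550 to 1710 TPM in P213L. The groups did not overlap for Nrgn (log2 fold change -0.28 ± 0.15, SE; limma adjusted p = 0.827), and its value was -0.16 without WT replicate 3, the highest library. Thrsp, a target best known from liver, had means of 7.10 ± 1.55 TPM for WT and 5.40 ± 0.892 TPM for P213L (SD, n = 4 and 3), with a log2 fold change of -0.35, and -0.24 without WT replicate 3.

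Of 6 genes listed as lowered, 4 were higher and 2 lower in P213L, with a median log2 fold change of 0.11, and 0 passed in limma. With WT replicate 3 left out, 3 were higher and 3 lower, with a median of 0.03. Cirbp, a cold-inducible RNA-binding protein, was the 1 of the 6 with an unadjusted p under 0.05, on the lower side, at 162 to 215 TPM across WT and 139 to 151 TPM in P213L (-0.32 ± 0.12, SE, and -0.24 without WT replicate 3). All P213L values of Mamdc2 (4.20 to 4.39 TPM) lay above all WT values (3.82 to 4.17 TPM), with a log2 fold change of 0.08 ± 0.12, and 0.004 with median-of-ratios scaling. The collagen genes Col6a1 and Col6a2 had log2 fold changes of 0.33 ± 0.27 and 0.23 ± 0.25 (SE), and 0.09 and -0.003 without WT replicate 3. Syce2 had 0.13 ± 0.15 with all libraries and 0.24 without that one.

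**Figure D4:**
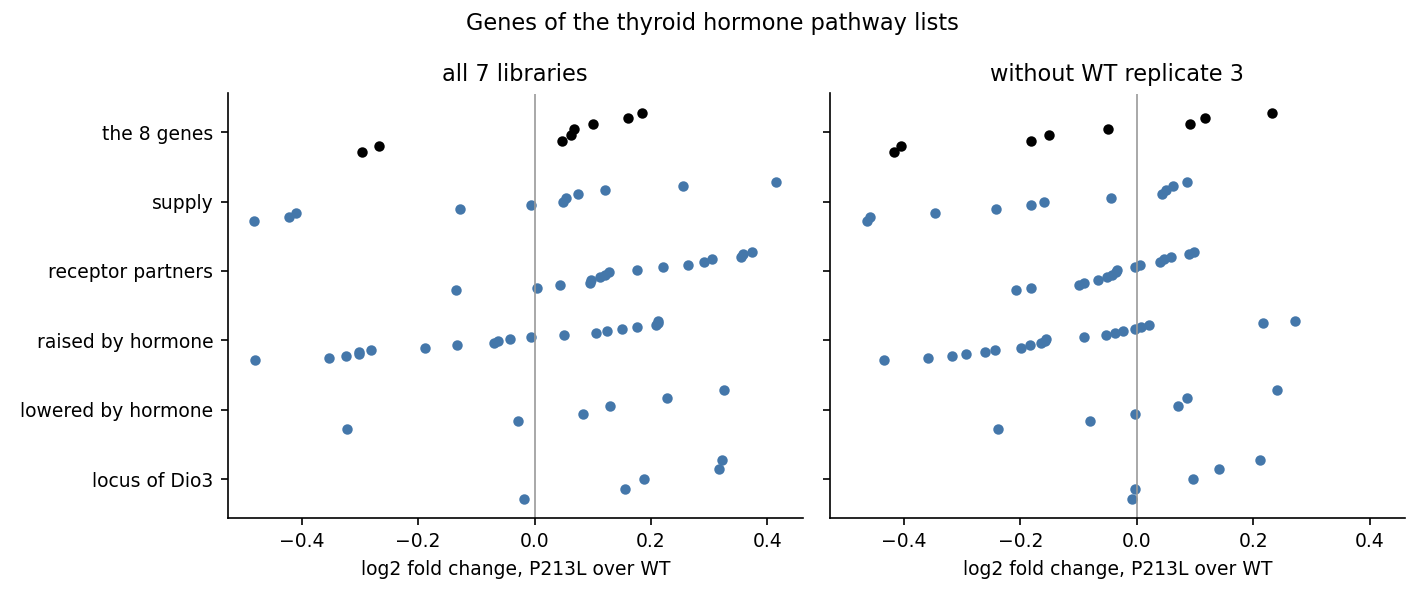
Log2 fold changes, P213L over WT, of the 8 genes (black) and of the tested genes of the 5 pathway lists (blue), 1 point per gene, for all 7 libraries (left) and without WT replicate 3 (right). Points are spread vertically within a list only to separate them. Ttr is left out because its value rests on 1 library. The receptor partners lie mostly above 0 on the left and around 0 on the right.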

How the data were processed

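RNA of fresh cortex was extracted with TRIzol and made into strand-specific libraries of polyadenylated RNA, per the labels' protocols. The submitters' processing notes name HISAT2, HTSeq and the build mm10, while versions, annotation and gene lengths were not given in the sources used here. Values were deposited as TPM, per the file headers, and each library sums to 1000000 TPM, so a difference in abundant RNAs moves the values of every other gene.

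Samples were grouped by title. The whole table was fitted in limma 3.58.1 (R 4.3.3) on the scale log2(TPM + 0.5), keeping genes whose mean reached 1 TPM, with a trend of variance on mean, and two-sided p-values were adjusted by Benjamini-Hochberg over 17582 genes at a threshold of 0.05. Fold changes on this scale understate those of low genes. A two-sided exact permutation test over samples, with 35 arrangements and a smallest possible p of 0.0286, was run for single genes. Lists were described by counts and medians. Correlations are descriptions without a test.

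The 8 genes and the lists were chosen with earlier results of these data known. Named from each list were the 4 genes with the smallest p and those whose groups did not overlap, and Ttr was added after its values were seen. Depth was estimated by multiplying TPM by exon lengths of GENCODE vM21 (mm10), for 48920 rows with a unique symbol, and taking the most frequent low value of a library as 1 counted unit. Within 0.05, 95.2 to 96.1% of low values were then whole or half-integer numbers of units. Whole numbers alone made up 64.4 to 72.5%, so the unit may be larger than the true step, and unit numbers and depths may be too low. Gene positions are from that annotation and upstream sequences from RefSeq (GRCm38.p6), which held 5 of the 8 genes. The sources place some starts differently, those of Dio2 and Thrb among them.

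The fit was tested on simulated data. Alternatives were other pseudocounts, filters and scalings, other limma settings, the replicate number as a block, and each library left out. Median-of-ratios scaling together with leaving out WT replicate 3 was chosen after seeing the data. Figures were drawn with matplotlib 3.10.9.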

Additional observations from a re-analysis of the deposited data

Results flagged for a closer look

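The 4 WT libraries were searched for a single library far from the other 3 in 33 genes, and 4 such values were found. Chance gives such a value in about 1 in 20 groups, but the 4 cannot be read against that rate, since Ttr was chosen after its values were seen and the other 3 values share WT replicate 3, a library that stands apart. Ttr, the thyroxine carrier of the choroid plexus, stood at 1216 TPM in WT replicate 2 against 0.278 to 0.875 TPM in the other WT libraries. The summed level of the 8 choroid plexus markers, Ttr included, was 1260 TPM there and 6.11 to 11.4 TPM in the other 6 libraries. In WT replicate 3, the transporter Slco3a1 stood at 18.1 TPM against 28.7 to 29.7 TPM, the corepressor subunit Tbl1x at 21.2 TPM against 46.6 to 51.5 TPM, and the coactivator Ncoa3 at 8.39 TPM against 23.0 to 24.0 TPM. None of the 8 genes of supply and response had such a value.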

How the results depend on the processing

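Of 159 values of the 8 genes under 20 alternatives, 144 kept their direction and 15 reversed. Thra, Dio2, Dio3 and Klf9 kept theirs in each alternative that tested them, though not their size. With each library left out in turn, Thra ranged from 0.091 to 0.255, Dio2 from -0.417 to -0.191, Dio3 from 0.011 to 0.358 and Klf9 from -0.405 to -0.148. Median-of-ratios scaling gave -0.022 for Thrb, -0.019 for Hr and -0.041 for Slco1c1, quantile normalization -0.034, -0.033 and -0.021, and median-of-ratios scaling without WT replicate 3 -0.18, -0.15 and -0.050. Sample weights gave -0.27 for Thrb and -0.051 for Slco1c1. With 1 library left out, Thrb ranged from -0.18 to 0.19, Hr from -0.15 to 0.25, Slco1c1 from -0.050 to 0.10 and Crym from -0.046 to 0.23. The cause was not tested. The number of the 8 past adjustment was 4 with sample weights and 0 in each other alternative. Over all genes, 3981 passed adjustment with sample weights and 10 with no filter on low values. The 657 genes at an unadjusted p under 0.05 became 6969 with sample weights, 2010 with no filter, 1351 with a minimum of 0.1 TPM and 361 with a minimum of 5 TPM. They became 1531 with median-of-ratios scaling without WT replicate 3, and 266 to 1574 with 1 library left out (266 without P213L replicate 1, 390 and 314 without P213L replicates 2 and 3, 1574 without WT replicate 1 and 1528 without WT replicate 3). Dio3 was not tested with a minimum of 5 TPM. Samples with the same replicate number had correlations of 0.128, 0.17 and -0.101 between their deviations from the group means. P213L replicates 1 and 2 were each most like the WT library of their own number, and P213L replicate 3 was most like WT replicate 1. Whether the number stands for anything shared is not given by the labels and was not tested. With the replicate number as a block, 501 genes had an unadjusted p under 0.05 and 0 of the 8 passed. Few counted units limit Dio3, and 7 libraries limit each of the 8.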
